A study of Mus musculus with 9 samples.

Results

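The glycolysis, glycogen and lactate genes are 33 genes chosen by name from the 43629 genes of a deposited count table. They cover glucose uptake, the steps of glycolysis with their isoforms and regulators, lactate and pyruvate handling, and glycogen. The choice used no measured value as its rule, but it was made with earlier results of these data known. Of the 33, 32 passed the count filter of the test, while Eno2 did not. RNA was from small intestine epithelial cells of mice, in 9 libraries of 3 per group. The groups were HIF1α∆IEC, with 3 libraries, HIF2α∆IEC, with 3, and 3 littermate controls whose strain label is HIF[alpha]F/F. HIF1α and HIF2α are encoded by Hif1a and Epas1, F/F stands for a floxed allele, and ∆IEC marks loss of the subunit in intestinal epithelial cells. The labels name no Cre driver and no age, and do not say which floxed gene the controls carried. The treatment label reads naïve, although the text on RNA extraction names a model of collagen induced arthritis. No label says that each library came from its own animal, so p-values measure only the spread between these libraries, which may be in part technical.

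Glycolysis splits glucose into pyruvate in the cytosol and yields ATP without oxygen. Lactate dehydrogenase turns pyruvate into lactate, which monocarboxylate transporters move across the membrane, while pyruvate dehydrogenase sends pyruvate into mitochondria. HIF1α is best known as the factor that raises transcription of glucose transporters, glycolytic enzymes and lactate dehydrogenase when oxygen is low. HIF2α is known in the intestine for genes of iron absorption. Both bind DNA with their partner ARNT at a short core, ACGTG or GCGTG, and the intestinal villus is known for its low oxygen tension.

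No glycolysis, glycogen or lactate gene passed the test in either deletion. In the libraries labelled HIF1α∆IEC against control, 0 of 32 had an adjusted p under 0.05, and 0% of all 15486 tested genes did (edgeR quasi-likelihood test). In HIF2α∆IEC against control the count was again 0 of 32, with 0% of all genes. In HIF2α∆IEC against HIF1α∆IEC it was 0 of 32 as well, with 0% of all genes. At an unadjusted p under 0.05 the count of these genes was also 0 in each of the 3 comparisons, where all tested genes gave 0.969% lower and 2.91% higher in HIF1α∆IEC, 0.743% lower and 1.11% higher in HIF2α∆IEC, and 4.29% lower and 2.31% higher in HIF2α∆IEC against HIF1α∆IEC. DESeq2 called 2, 5 and 15 genes in these comparisons in the same order and limma-voom called 0, with none of the 33 among them. The smallest unadjusted p-values were 0.0569 for Aldoc in HIF1α∆IEC against control, and 0.0594 for Pgk1 and 0.0775 for Pgm1 in HIF2α∆IEC against HIF1α∆IEC.

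The labels themselves could not be checked well from these counts. In CPM, the counts per 1000000 after TMM scaling of the library sizes, Hif1a had 22.6, 64.3 and 18.01 CPM in HIF1α∆IEC and 34.9, 15.1 and 22.5 CPM in HIF2α∆IEC, against 15.97, 19.9 and 21.1 CPM in the controls. Epas1 had 29.8, 18.5 and 22.3 CPM in HIF1α∆IEC and 36.2, 11.2 and 11.6 CPM in HIF2α∆IEC, against 32.7, 14.5 and 21.1 CPM in the controls. Neither targeted gene was lower in its own deletion beyond the spread: the log2 fold change (± SE throughout) of Hif1a was 0.88 ± 0.46 in HIF1α∆IEC and that of Epas1 was -0.21 ± 0.46 in HIF2α∆IEC. The counts run over the whole gene, so exons that a deletion leaves in place are counted too. Group names below are those of the labels. Replicate 2 of HIF1α∆IEC held 12.15% of its counts on the mitochondrial genome and replicate 1 of HIF2α∆IEC 10.76%, against 5.04% to 6.74% in the other 7. All 3 controls read as male from Xist and Y-linked genes, and each deletion group held 1 male, replicate 1, and 2 females, so group differences and sex are in part confounded. HIF1α∆IEC replicate 1 and control replicate 1, and HIF2α∆IEC replicate 3 and control replicate 3, were closer to each other than any pair of libraries within a group was, with a chi-square per gene of 17.7 and 24.9 against at least 43.6. Total counts ran from 20959964 to 40391453 per library. The 11 enterocyte markers summed to 11860, 12130 and 14720 CPM at the lowest, median and highest of HIF1α∆IEC, to 10420, 11090 and 21720 CPM of HIF2α∆IEC, and to 9571, 11790 and 13450 CPM of the controls. Markers of T cells and intraepithelial lymphocytes (14 of 15 in the table) summed to 479 to 784 CPM in HIF1α∆IEC and 290 to 3179 CPM in HIF2α∆IEC, against 377 to 525 CPM in the controls. Erythroid markers (7 of 8) summed to 2.61 to 23.8 CPM in HIF1α∆IEC and 13.1 to 118.5 CPM in HIF2α∆IEC, against 2.73 to 6.91 CPM in the controls. HIF2α∆IEC replicate 1 was the highest of its group for both of these lists, so its lymphocyte and blood signal stood well above that of the other libraries. The same library held the highest enterocyte sum, 21720 CPM. The 13 stromal markers summed to 18.5 to 36.0 CPM in HIF1α∆IEC and 27.6 to 61.6 CPM in HIF2α∆IEC, against 17.8 to 24.5 CPM in the controls. Macrophage markers (7 of 8) summed to 44.3 to 82.0 CPM in HIF1α∆IEC and 39.7 to 57.4 CPM in HIF2α∆IEC, against 33.1 to 40.7 CPM in the controls. Paneth cell markers (6 of 7) summed to 20510 to 25600 CPM in HIF1α∆IEC and 8219 to 23540 CPM in HIF2α∆IEC, against 15730 to 25040 CPM in the controls. The 7 goblet cell markers summed to 7549 to 10780 CPM in HIF1α∆IEC and 10500 to 12230 CPM in HIF2α∆IEC, against 7750 to 10020 CPM in the controls. The 8 markers of dividing crypt cells summed to 572 to 1248 CPM in HIF1α∆IEC and 593 to 1112 CPM in HIF2α∆IEC, against 588 to 1211 CPM in the controls. No listed marker in the table was at 0 in all 9 libraries, and the part of these cells in the values below was not tested. In bulk libraries, fewer cells of a type and less RNA per cell cannot be told apart.

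RefSeq holds start sites for all 33 genes, and the 250 bases before each of their 49 listed starts (build GRCm38.p6) were searched on both strands for ACGTG and GCGTG. One or both were found before at least 1 start of 26 of the 33 genes, and in 73.5% of their windows against 38.6% of all windows. Of their 49 windows, 20 held ACGTG and 24 held GCGTG, which is 40.8% and 49.0%, while 16.6% and 28.2% of all 32851 windows in the table did. Windows of the same gene can overlap, as for Eno1, Aldoa and Pfkm, so the same site can be counted more than once. The windows with ACGTG came from 16 of the 33 genes. No share per gene was taken over all genes. Sequences of 5 genes are shown, 5′ to 3′ on the gene's strand, because Pgk1, Hk2 and Aldoc were the genes with every HIF1α∆IEC library under every control, and Ldha and Slc2a1 are textbook HIF1α targets that are read against them. Each stretch is shown only as far as no annotated exon is reached, and capitals mark ACGTG or GCGTG on either strand.
Pgk1 promoter, chrX:106186850-106187099, plus strand: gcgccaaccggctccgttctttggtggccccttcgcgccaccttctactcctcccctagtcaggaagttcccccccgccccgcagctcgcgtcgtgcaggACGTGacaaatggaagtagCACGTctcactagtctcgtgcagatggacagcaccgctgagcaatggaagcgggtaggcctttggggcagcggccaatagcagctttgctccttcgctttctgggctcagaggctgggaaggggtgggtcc
Hk2 promoter, chr6:82774455-82774704, minus strand: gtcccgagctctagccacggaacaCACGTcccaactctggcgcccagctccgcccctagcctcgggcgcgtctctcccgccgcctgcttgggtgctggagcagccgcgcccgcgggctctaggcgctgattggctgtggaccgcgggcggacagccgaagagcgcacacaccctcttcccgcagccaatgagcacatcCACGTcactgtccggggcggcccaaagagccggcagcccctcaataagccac
Aldoc promoter, chr11:78322823-78322967, plus strand: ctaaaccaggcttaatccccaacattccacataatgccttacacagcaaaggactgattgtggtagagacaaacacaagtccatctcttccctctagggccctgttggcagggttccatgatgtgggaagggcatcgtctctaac
Ldha promoter, chr7:46845554-46845803, plus strand: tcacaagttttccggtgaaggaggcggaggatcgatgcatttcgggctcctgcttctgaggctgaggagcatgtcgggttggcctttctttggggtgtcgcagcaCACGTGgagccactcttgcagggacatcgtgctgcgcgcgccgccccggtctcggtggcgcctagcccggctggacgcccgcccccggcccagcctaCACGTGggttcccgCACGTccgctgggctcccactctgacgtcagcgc
Slc2a1 promoter, chr4:119108495-119108710, plus strand: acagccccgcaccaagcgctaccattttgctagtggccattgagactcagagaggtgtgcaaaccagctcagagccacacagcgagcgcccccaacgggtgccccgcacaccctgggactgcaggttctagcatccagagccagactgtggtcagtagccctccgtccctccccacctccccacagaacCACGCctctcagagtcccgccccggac
The Ldha stretch lies before the upstream one of its 2 listed starts and held 5 matches to ACGTG, of which 4 make up 2 copies of the palindrome CACGTG, read once on each strand. As few as 0.134% of all windows, 44 of them, held 5 or more. The window before the other Ldha start held 1 match to GCGTG and 0 to ACGTG. Pgk1 and Hk2 held 2 matches each to ACGTG, and the Slc2a1 stretch held 1 match to GCGTG. The Slc2a1 and Aldoc windows are printed to 216 and 145 of their 250 bases, since an annotated exon begins there, and the counts above use the full windows. In full, the Slc2a1 window held 1 match to ACGTG and 1 to GCGTG, and each of the 2 Aldoc windows held 1 match to GCGTG, which for the printed one lies in the part not shown. A match describes these letters and shows no binding.

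Slc2a1 encodes the glucose transporter GLUT1. It had 43.5, 23.4 and 40.1 CPM in HIF1α∆IEC and 21.6, 38.8 and 30.8 CPM in HIF2α∆IEC, against 42.2, 29.9 and 29.2 CPM in the controls. The highest library was HIF1α∆IEC replicate 1 and the lowest HIF2α∆IEC replicate 1, and all groups overlapped. Slc2a1's log2 fold changes against control were 0.080 ± 0.30 in HIF1α∆IEC and -0.15 ± 0.30 in HIF2α∆IEC, so GLUT1 RNA moved by less than its spread in both deletions, with 95% intervals of -0.58 to 0.74 and -0.81 to 0.51.

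Hexokinases trap glucose in the cell by phosphorylating it, and the most abundant one here was Hkdc1, a hexokinase first named for its domain. Hkdc1 had 470, 363 and 396 CPM in HIF1α∆IEC and 419, 303 and 329 CPM in HIF2α∆IEC, against 504, 314 and 379 CPM in the controls. Of the RNA of the hexokinase genes, taken per length as CPM per kilobase, Hkdc1 made up 88.9% to 90.9% in HIF1α∆IEC and 84.5% to 90.0% in HIF2α∆IEC, against 86.9% to 89.4% in the controls. The dominance of Hkdc1 therefore held in all 9 libraries. Hk2, the inducible muscle-type hexokinase, had 39.1, 30.3 and 37.9 CPM in HIF1α∆IEC and 31.7, 34.99 and 57.6 CPM in HIF2α∆IEC, against 51.5, 39.6 and 48.3 CPM in the controls. All 3 HIF1α∆IEC libraries lay below all 3 controls, the nearest pair at 39.1 and 39.6 CPM, while the HIF2α∆IEC libraries spanned the control range. Hk2's log2 fold changes were -0.38 ± 0.26 in HIF1α∆IEC and -0.17 ± 0.26 in HIF2α∆IEC, the first with an unadjusted p of 0.175. Hk1, the broadly expressed hexokinase, had 20.3, 13.7 and 21.04 CPM in HIF1α∆IEC and 26.95, 15.96 and 12.3 CPM in HIF2α∆IEC, against 20.1, 16.1 and 12.7 CPM in the controls. Hk1 and Hkdc1 overlapped between all groups: Hk1's log2 fold changes were 0.17 ± 0.33 in HIF1α∆IEC and 0.17 ± 0.33 in HIF2α∆IEC, and Hkdc1's were 0.039 ± 0.24 in HIF1α∆IEC and -0.19 ± 0.24 in HIF2α∆IEC.

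The upper steps of glycolysis run from glucose 6-phosphate to the triose phosphates, and their RNA was abundant. Gpi1, glucose-6-phosphate isomerase, had 675, 460.1 and 588 CPM in HIF1α∆IEC and 621, 560.3 and 519.9 CPM in HIF2α∆IEC, against 686, 528 and 564 CPM in the controls. Tpi1, triosephosphate isomerase, had 1223, 838 and 1318 CPM in HIF1α∆IEC and 862, 939.7 and 839 CPM in HIF2α∆IEC, against 1432, 814 and 878 CPM in the controls. Aldoa, the broadly expressed aldolase, had 835, 554 and 744 CPM in HIF1α∆IEC and 597, 701 and 609 CPM in HIF2α∆IEC, against 920.4, 604 and 620.3 CPM in the controls. For these 3 enzymes control replicate 1 was the highest of the 9 libraries and every group overlapped the others. Gpi1's log2 fold changes were -0.046 ± 0.22 in HIF1α∆IEC and -0.064 ± 0.22 in HIF2α∆IEC. Tpi1's were 0.11 ± 0.27 in HIF1α∆IEC and -0.24 ± 0.27 in HIF2α∆IEC, and Aldoa's were -0.0075 ± 0.24 in HIF1α∆IEC and -0.17 ± 0.24 in HIF2α∆IEC. None of the 3 passed the test.

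Aldoc, the aldolase best known from brain, was far less abundant and gave the lowest p-value of these genes in HIF1α∆IEC. It had 12.6, 6.599 and 10.4 CPM in HIF1α∆IEC and 19.2, 12.1 and 10.1 CPM in HIF2α∆IEC, against 21.3, 13.5 and 14.5 CPM in the controls. All 3 HIF1α∆IEC libraries lay below all 3 controls, and HIF2α∆IEC replicates 2 and 3 did as well, while HIF2α∆IEC replicate 1 lay inside the control range. Aldoc's log2 fold changes were -0.74 ± 0.35 in HIF1α∆IEC and -0.25 ± 0.35 in HIF2α∆IEC. In HIF1α∆IEC the unadjusted p was 0.0569, the adjusted p (edgeR) 0.999, and the 95% interval ran -1.499 to 0.026. With a term for sex in the fit, which rests on male replicate 1 of each deletion, the log2 fold change in HIF1α∆IEC was -0.31. Aldoc is encoded on chromosome 11 at 78322968 to 78327781 in mm10, and within the aldolases it was a minor isoform, with 0.298% to 0.437% of aldolase RNA per length in HIF1α∆IEC and 0.400% to 0.550% in HIF2α∆IEC, against 0.492% to 0.671% in the controls. Aldoa held 16.99% to 37.8% of it over the 9 libraries.

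Phosphofructokinase commits sugar to glycolysis and has a liver, a muscle and a platelet isoform. Pfkl, the liver type, had 65.6, 46.6 and 71.96 CPM in HIF1α∆IEC and 72.7, 98.1 and 74.2 CPM in HIF2α∆IEC, against 85.4, 67.3 and 72.4 CPM in the controls. Pfkp, the platelet type, had 141, 189.9 and 139 CPM in HIF1α∆IEC and 253, 97.6 and 211 CPM in HIF2α∆IEC, against 175, 175 and 215 CPM in the controls. Pfkm, the muscle type, had 17.7, 11.6 and 18.04 CPM in HIF1α∆IEC and 11.5, 17.8 and 17.4 CPM in HIF2α∆IEC, against 18.5, 15 and 14.3 CPM in the controls. Per length, Pfkp and Pfkl shared most of the family RNA, at 26.8% to 58.2% and 30.5% to 57.6% over the 9 libraries, and Pfkm held 8.21% to 16.6%. Which of Pfkp and Pfkl led differed from library to library within each group. Pfkl's log2 fold changes were -0.29 ± 0.23 in HIF1α∆IEC and 0.12 ± 0.23 in HIF2α∆IEC. Pfkp's were -0.27 ± 0.31 in HIF1α∆IEC and -0.010 ± 0.31 in HIF2α∆IEC, and Pfkm's were -0.015 ± 0.29 in HIF1α∆IEC and -0.032 ± 0.29 in HIF2α∆IEC. Every isoform overlapped between each deletion and the controls.

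The PFKFB enzymes set the level of fructose 2,6-bisphosphate, the strongest activator of phosphofructokinase. Pfkfb4 was the main one, with 149.6, 95.4 and 142 CPM in HIF1α∆IEC and 99.6, 124 and 140.4 CPM in HIF2α∆IEC, against 124, 124 and 141 CPM in the controls. Pfkfb3, known for its response to low oxygen, had 24.5, 14.5 and 13.4 CPM in HIF1α∆IEC and 30.1, 7.04 and 19.2 CPM in HIF2α∆IEC, against 24.4, 17.9 and 17.2 CPM in the controls. Pfkfb2, the heart-type isoform, had 6.74, 7.18 and 4.56 CPM in HIF1α∆IEC and 9.67, 6.81 and 8.53 CPM in HIF2α∆IEC, against 5.37, 7.97 and 8.88 CPM in the controls. Pfkfb3 spread widely inside HIF2α∆IEC, where replicate 1 was the highest and replicate 2 the lowest of all 9 libraries. Pfkfb4's log2 fold changes were -0.0048 ± 0.23 in HIF1α∆IEC and -0.092 ± 0.23 in HIF2α∆IEC. Pfkfb3's were -0.18 ± 0.45 in HIF1α∆IEC and -0.078 ± 0.45 in HIF2α∆IEC, and Pfkfb2's were -0.27 ± 0.32 in HIF1α∆IEC and 0.17 ± 0.32 in HIF2α∆IEC. Pfkfb4 held 83.3% to 93.6% of the family's RNA per length in the 9 libraries, and no group stood outside another for any of the 3 genes.

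**Figure D1:**
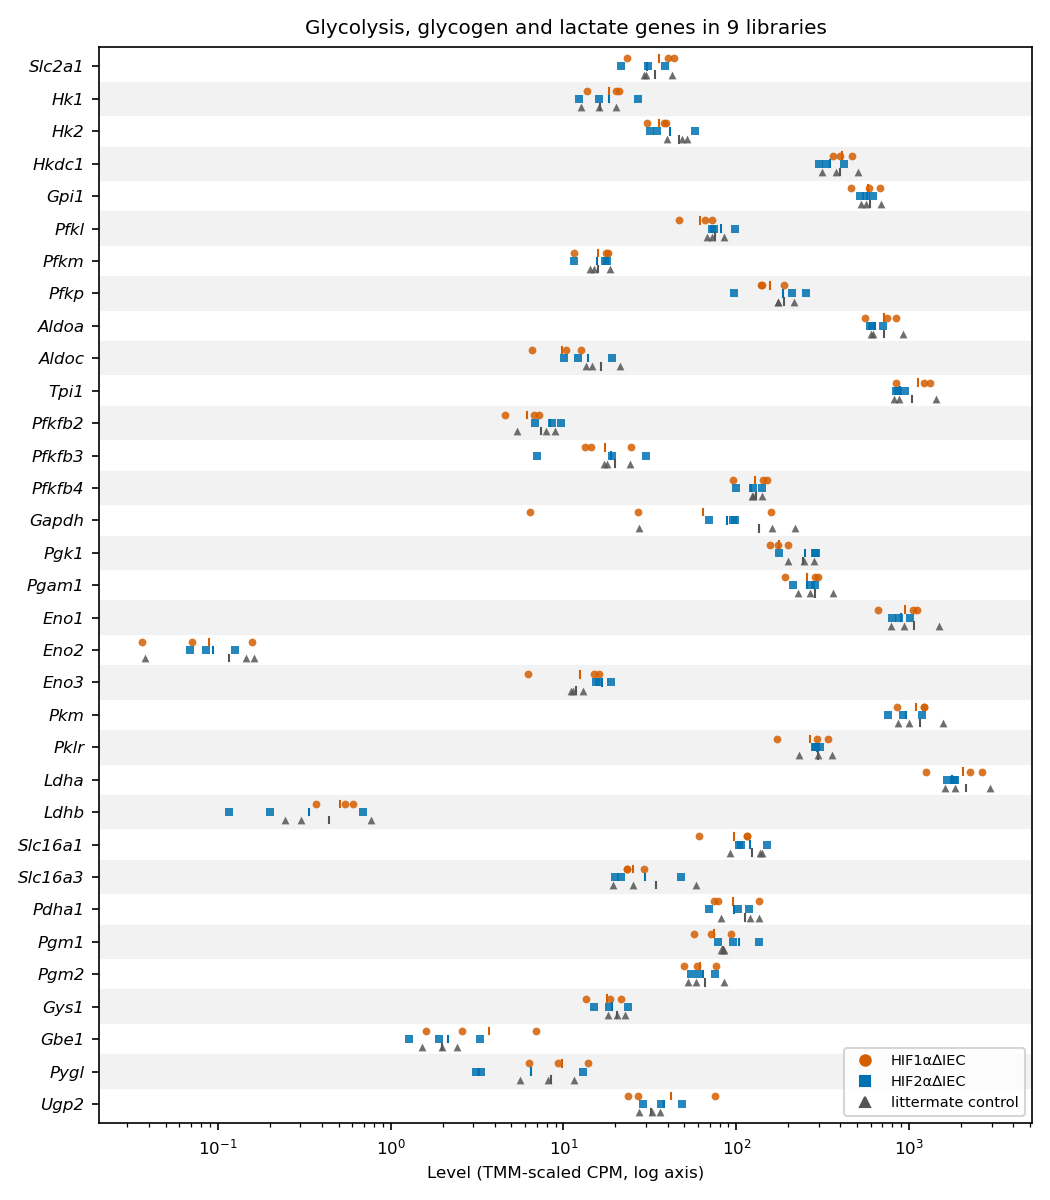
Level of each of the 33 genes in the 9 libraries, as CPM (TMM-scaled) on a log axis. Circles are HIF1α∆IEC, squares HIF2α∆IEC and triangles littermate controls, and short lines mark group means. Groups lie over each other for most genes, Pgk1, Hk2 and Aldoc have all circles left of all triangles, and Gapdh spreads most.

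The lower steps of glycolysis, which return ATP, held the gene with the smallest p between the 2 deletions. Pgk1, phosphoglycerate kinase, the first ATP-yielding step, is encoded on the X chromosome at 106187100 to 106203699 in mm10. It had 173, 199 and 156 CPM in HIF1α∆IEC and 291, 176 and 284 CPM in HIF2α∆IEC, against 199.9, 247 and 282 CPM in the controls. All 3 HIF1α∆IEC libraries lay below the controls, with HIF1α∆IEC replicate 2 next to control replicate 1, while HIF2α∆IEC replicates 1 and 3 lay above all 3 controls and replicate 2 below them. Pgk1's log2 fold changes were -0.46 ± 0.24 in HIF1α∆IEC and 0.043 ± 0.24 in HIF2α∆IEC. In HIF1α∆IEC the unadjusted p was 0.0806 and the adjusted p (edgeR) 0.999, with a 95% interval of -0.9962 to 0.066. Leaving out any 1 of the 9 libraries kept the log2 fold change in HIF1α∆IEC between -0.62 and -0.34. All controls were male and HIF1α∆IEC replicates 2 and 3 female, so group and sex are in part confounded for this X-linked gene. Pgk1 has 2 near-identical loci elsewhere in the genome, which took 0.703% to 1.67% of the joint counts.

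Pgam1, phosphoglycerate mutase, had 295, 190.5 and 283 CPM in HIF1α∆IEC and 214, 284 and 269 CPM in HIF2α∆IEC, against 363, 226 and 266 CPM in the controls. Eno1, the main enolase, had 1117, 659 and 1054 CPM in HIF1α∆IEC and 1009, 879 and 794 CPM in HIF2α∆IEC, against 1495, 789 and 928 CPM in the controls. Pkm, the pyruvate kinase gene of most tissues, had 1225, 849 and 1226 CPM in HIF1α∆IEC and 1182, 925 and 752 CPM in HIF2α∆IEC, against 1574, 867 and 1003 CPM in the controls. Control replicate 1 was the highest library for all 3, and HIF1α∆IEC replicate 2 was the lowest for Pgam1 and Eno1. Pgam1's log2 fold changes were -0.15 ± 0.25 in HIF1α∆IEC and -0.16 ± 0.25 in HIF2α∆IEC. Eno1's were -0.18 ± 0.29 in HIF1α∆IEC and -0.26 ± 0.29 in HIF2α∆IEC, and Pkm's were -0.061 ± 0.28 in HIF1α∆IEC and -0.27 ± 0.28 in HIF2α∆IEC. Pklr, the liver and red cell pyruvate kinase, had 339.7, 171 and 292 CPM in HIF1α∆IEC and 304, 284 and 289.9 CPM in HIF2α∆IEC, against 359, 232 and 297 CPM in the controls, with log2 fold changes of -0.15 ± 0.27 in HIF1α∆IEC and -0.018 ± 0.27 in HIF2α∆IEC. Pkm made up 81.8% to 86.1% of pyruvate kinase RNA per length in HIF1α∆IEC and 76.4% to 82.9% in HIF2α∆IEC, against 80.8% to 84.5% in the controls, so the epithelium carried both genes with Pkm in excess in every library.

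Eno3, the muscle enolase, was the only 1 of the 32 whose HIF2α∆IEC libraries all lay above the controls. It had 16.1, 6.23 and 15.1 CPM in HIF1α∆IEC and 15.5, 18.8 and 16.1 CPM in HIF2α∆IEC, against 13.04, 11.1 and 11.3 CPM in the controls. HIF1α∆IEC replicates 1 and 3 were also above every control, and replicate 2 was the lowest of the 9 libraries. Eno3's log2 fold changes were 0.082 ± 0.34 in HIF1α∆IEC and 0.51 ± 0.34 in HIF2α∆IEC, and in HIF2α∆IEC the unadjusted p was 0.162 and the adjusted p (edgeR) 1. As a share of enolase RNA per length, Eno3 held 2.84% to 4.27% in HIF1α∆IEC and 4.54% to 6.21% in HIF2α∆IEC, against 2.63% to 4.17% in the controls, and Eno1 held most of the rest. Eno2, the neuronal enolase, had 1, 3 and 2 counts in HIF1α∆IEC and 4, 3 and 3 counts in HIF2α∆IEC, against 3, 4 and 1 counts in the controls, too few for the test.

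**Figure D2:**
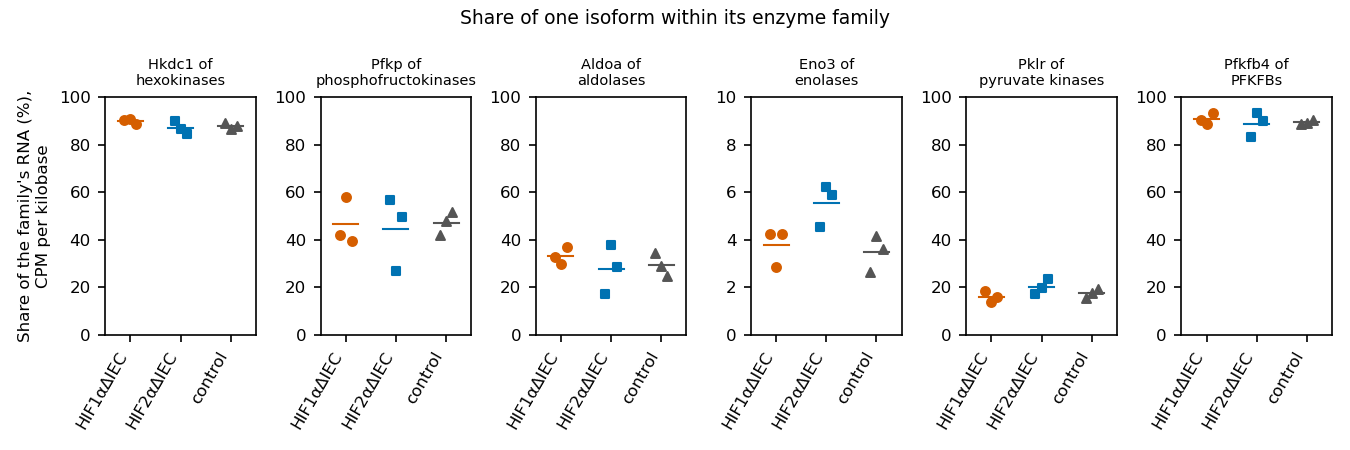
Share of 1 isoform in the RNA of its enzyme family (percent of the summed CPM per kilobase) in each library, by group, with lines at the group means. The enolase panel runs to 10% and the others to 100%. Hkdc1 and Pfkfb4 dominate in all 9 libraries, Pfkp varies most, and the Eno3 share of HIF2α∆IEC lies above that of the controls.

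Gapdh, glyceraldehyde-3-phosphate dehydrogenase, is often used as a gene of constant level, and was the least even of the 33 genes here. At a mean of 23.2 CPM per kilobase over the 9 libraries, its level lay far below that of Tpi1, at 460. It had 26.9, 6.44 and 159 CPM in HIF1α∆IEC and 69.7, 95.5 and 98.3 CPM in HIF2α∆IEC, against 160, 219 and 27.5 CPM in the controls. The highest library had 34 times the level of the lowest, and low and high libraries occurred inside both the HIF1α∆IEC and the control group. Gapdh's log2 fold changes were -1.08 ± 0.91 in HIF1α∆IEC and -0.62 ± 0.90 in HIF2α∆IEC, with SEs above those of the other tested genes. The genome holds 117 loci near-identical to Gapdh, and their summed level was 50.9, 38.3 and 54.2 CPM in HIF1α∆IEC and 42.7, 45.2 and 39.7 CPM in HIF2α∆IEC, against 53.1, 38.2 and 44.0 CPM in the controls. That sum differed by 1.42 times between its extremes, and took 14.9% to 85.6% of the joint counts. With the loci added to Gapdh the log2 fold change in HIF1α∆IEC was -0.69, and without HIF1α∆IEC replicate 3, the one high library of its group, it was -3.02 for Gapdh alone. Tpi1, which works beside Gapdh in the pathway, differed by 1.76 times between its highest and lowest library. Whether the assignment of reads between these loci bears on the Gapdh values was not tested.

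**Figure D3:**
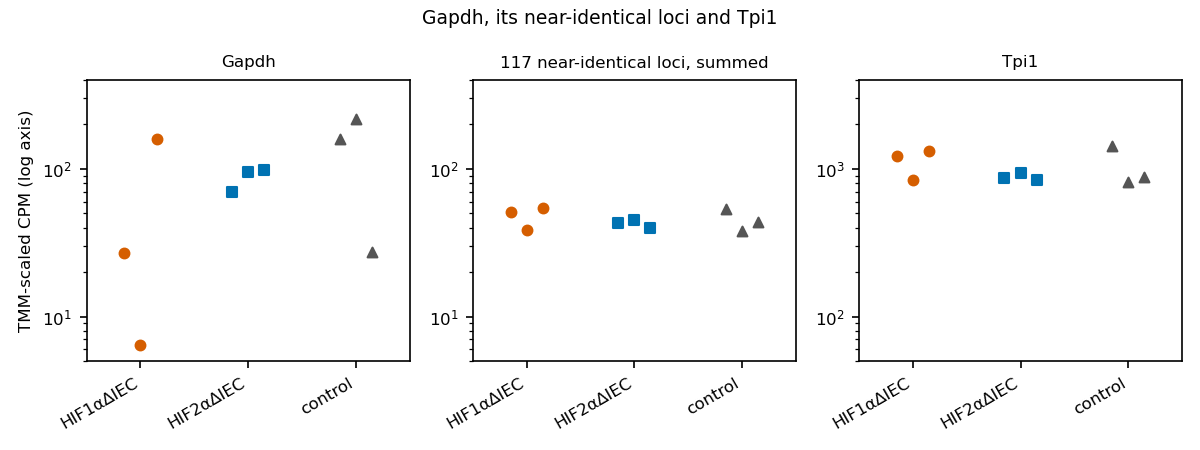
Level (TMM-scaled CPM, log axes) of Gapdh, of its 117 near-identical loci summed, and of Tpi1, with 1 point per library in replicate order within each group. Gapdh runs from 6.44 to 219 CPM, its loci from 38.2 to 54.2 CPM and Tpi1 from 814.5 to 1432 CPM.

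Lactate dehydrogenase came almost wholly from Ldha, the muscle-type subunit, which is encoded on chromosome 7 at 46841475 to 46855627 in mm10. Ldha had 2634, 1249 and 2261 CPM in HIF1α∆IEC and 1649, 1846 and 1822 CPM in HIF2α∆IEC, against 2919, 1613 and 1848 CPM in the controls. Control replicate 1 was the highest and HIF1α∆IEC replicate 2 the lowest, and the 3 HIF2α∆IEC libraries lay between them, inside the range of the controls. Ldha's log2 fold changes were -0.054 ± 0.31 in HIF1α∆IEC and -0.26 ± 0.31 in HIF2α∆IEC, with 95% intervals of -0.73 to 0.62 and -0.94 to 0.41. At a mean of 665 CPM per kilobase over the 9 libraries it was the most abundant of the 33 genes, ahead of Tpi1 at 460 and Pkm at 410.5 CPM per kilobase. Ldhb, the heart-type subunit, had 0.544, 0.370 and 0.606 CPM in HIF1α∆IEC and 0.693, 0.200 and 0.116 CPM in HIF2α∆IEC, against 0.244, 0.772 and 0.304 CPM in the controls. Ldha took at least 99.7% of the RNA of the 4 lactate dehydrogenase genes per length in every library. Ldhb's log2 fold changes were 0.21 ± 0.70 in HIF1α∆IEC and -0.42 ± 0.70 in HIF2α∆IEC and rest on few counts.

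Slc16a1 encodes the monocarboxylate transporter MCT1. It had 115, 116 and 60.5 CPM in HIF1α∆IEC and 107, 104 and 151 CPM in HIF2α∆IEC, against 91.5, 137 and 141 CPM in the controls. Slc16a3, which encodes MCT4, a transporter known for lactate export, had 29.3, 23.2 and 23.4 CPM in HIF1α∆IEC and 47.6, 21.6 and 19.99 CPM in HIF2α∆IEC, against 58.7, 19.3 and 25.2 CPM in the controls. HIF1α∆IEC replicate 3 was the lowest for Slc16a1, and control replicate 1 and HIF2α∆IEC replicate 1 were the highest for Slc16a3. Slc16a1's log2 fold changes were -0.35 ± 0.29 in HIF1α∆IEC and -0.032 ± 0.29 in HIF2α∆IEC, and Slc16a3's were -0.44 ± 0.43 in HIF1α∆IEC and -0.21 ± 0.43 in HIF2α∆IEC. Pdha1, the X-linked E1 alpha subunit of pyruvate dehydrogenase, had 78.6, 136 and 73.9 CPM in HIF1α∆IEC and 102, 69.7 and 118 CPM in HIF2α∆IEC, against 81.6, 119 and 136 CPM in the controls, with log2 fold changes of -0.22 ± 0.30 in HIF1α∆IEC and -0.21 ± 0.30 in HIF2α∆IEC. Groups overlapped for all 3 genes.

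Glycogen is made from glucose 1-phosphate, which phosphoglucomutase draws from glucose 6-phosphate. The deposited table uses the names Pgm1 and Pgm2 the other way round from GENCODE M21. Its Pgm1 is the chromosome 5 gene that GENCODE names Pgm2, and its Pgm2 is the chromosome 4 gene that GENCODE names Pgm1. Under the table's names, Pgm1 had 93.1, 71.7 and 56.9 CPM in HIF1α∆IEC and 135, 78.6 and 95.98 CPM in HIF2α∆IEC, against 81.3, 84 and 85.2 CPM in the controls. Pgm2 had 75.99, 49.9 and 59.5 CPM in HIF1α∆IEC and 75.5, 60.9 and 54.96 CPM in HIF2α∆IEC, against 85.4, 52.9 and 58.1 CPM in the controls. The controls of Pgm1 lay close together and each deletion had libraries on both sides of them. Pgm1's log2 fold changes were -0.18 ± 0.25 in HIF1α∆IEC and 0.31 ± 0.25 in HIF2α∆IEC, and Pgm2's were -0.083 ± 0.25 in HIF1α∆IEC and -0.038 ± 0.25 in HIF2α∆IEC.

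Ugp2 makes UDP-glucose, the donor for glycogen. It had 23.7, 75.3 and 26.96 CPM in HIF1α∆IEC and 48.5, 28.98 and 36.9 CPM in HIF2α∆IEC, against 27.2, 32.4 and 36.2 CPM in the controls. Gys1, glycogen synthase of muscle type, had 18.7, 13.6 and 21.6 CPM in HIF1α∆IEC and 15.1, 23.6 and 18.4 CPM in HIF2α∆IEC, against 22.8, 20.5 and 18.2 CPM in the controls. Gbe1, the branching enzyme, had 1.59, 6.97 and 2.603 CPM in HIF1α∆IEC and 3.31, 1.28 and 1.895 CPM in HIF2α∆IEC, against 1.51, 1.99 and 2.43 CPM in the controls. For both Ugp2 and Gbe1 HIF1α∆IEC replicate 2 stood above every other library, while for Gys1 the same library was the lowest. Ugp2's log2 fold changes were 0.39 ± 0.40 in HIF1α∆IEC and 0.25 ± 0.40 in HIF2α∆IEC. Gys1's were -0.19 ± 0.27 in HIF1α∆IEC and -0.11 ± 0.27 in HIF2α∆IEC, and Gbe1's were 0.90 ± 0.56 in HIF1α∆IEC and 0.12 ± 0.56 in HIF2α∆IEC. Without HIF1α∆IEC replicate 2, the log2 fold change in HIF1α∆IEC was -0.37 for Ugp2 and 0.042 for Gbe1. Pygl, the liver glycogen phosphorylase that breaks glycogen down, had 13.95, 9.34 and 6.31 CPM in HIF1α∆IEC and 12.9, 3.13 and 3.35 CPM in HIF2α∆IEC, against 11.5, 8.13 and 5.61 CPM in the controls, with log2 fold changes of 0.23 ± 0.55 in HIF1α∆IEC and -0.38 ± 0.55 in HIF2α∆IEC. Its replicate 1 was the highest in each of the 3 groups, and the groups overlapped.

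**Figure D4:**
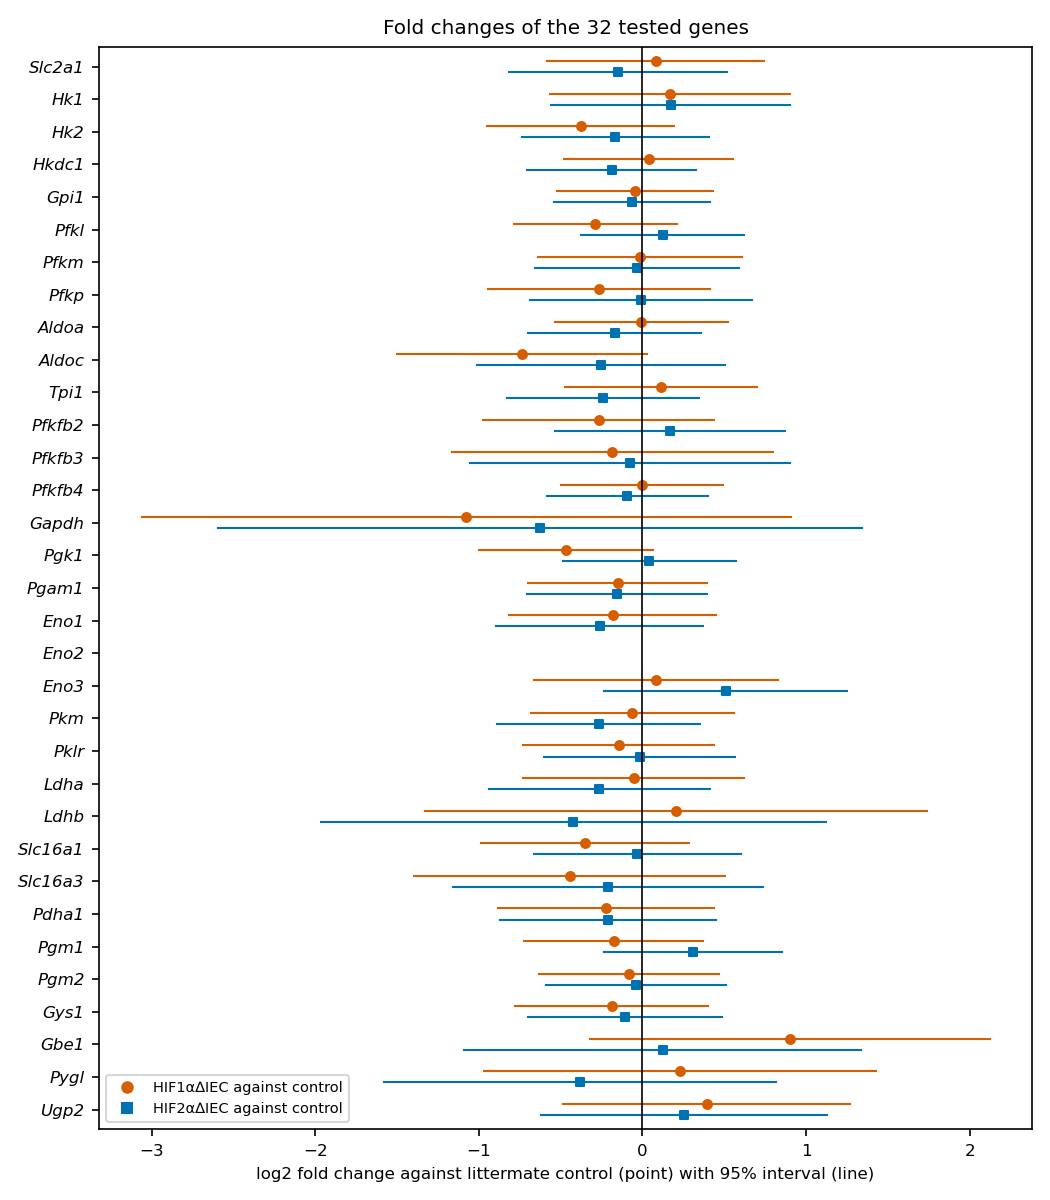
The log2 fold change of each tested gene against littermate control, circles for HIF1α∆IEC and squares for HIF2α∆IEC, with lines for the 95% interval of the edgeR fit. Eno2 was not tested and has no mark. Every line crosses 0, and Gapdh and Ldhb have the widest intervals.

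As a group, the genes sat slightly below the controls on both sides, and the counts depended on single libraries. In HIF1α∆IEC 23 of 32 had a log2 fold change below 0, with a median of -0.11, where 47.3% of all 15486 tested genes were below 0 and their median was 0.023. In HIF2α∆IEC 24 of 32 were below 0, with a median of -0.099, where 47.1% of all tested genes were below 0 and their median was 0.015. Both comparisons share the 3 controls, so their counts are not independent. Without control replicate 1 the counts were 15 of 32 in HIF1α∆IEC and 13 of 32 in HIF2α∆IEC, and with a term for sex they were 13 and 13. All 3 controls were male, so the sex term rests on male replicate 1 against female replicates 2 and 3 within the deletion groups. It cannot separate sex from what else sets those libraries apart. Without HIF1α∆IEC replicate 2 the count in HIF1α∆IEC was 16 of 32, and with that library and HIF2α∆IEC replicate 1 both left out the counts were 16 and 21. All 95% intervals of the 32 genes held 0 in both comparisons, with a median SE of 0.29 on the log2 scale, and the intervals show what sizes these libraries leave possible.

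Within groups, single libraries stood out across many of these genes. Control replicate 1 was the highest of the 9 libraries for 13 of the 33 genes and the lowest for 0, and the median of the 32 tested genes lay 0.26 log2 units above the control mean there. HIF1α∆IEC replicate 2 was the lowest of the 9 for 14 of the 33, among them Hk2, Gpi1, Pfkl, Aldoa, Aldoc, Gapdh, Eno1, Pklr and Ldha, and its median lay at -0.37, with 27 of 32 genes below the control mean. In the other 2 HIF1α∆IEC libraries 13 and 15 of 32 lay below it. In HIF2α∆IEC replicates 1, 2 and 3 the numbers below it were 14, 25 and 21 of 32. The 33 genes took 1.00%, 0.649% and 0.932% of scaled counts in HIF1α∆IEC and 0.836%, 0.786% and 0.771% in HIF2α∆IEC, against 1.17%, 0.745% and 0.819% in the controls. HIF1α∆IEC replicate 2 was also the library with 12.15% mitochondrial counts, and the part of that in its low values was not tested.

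**Figure D5:**
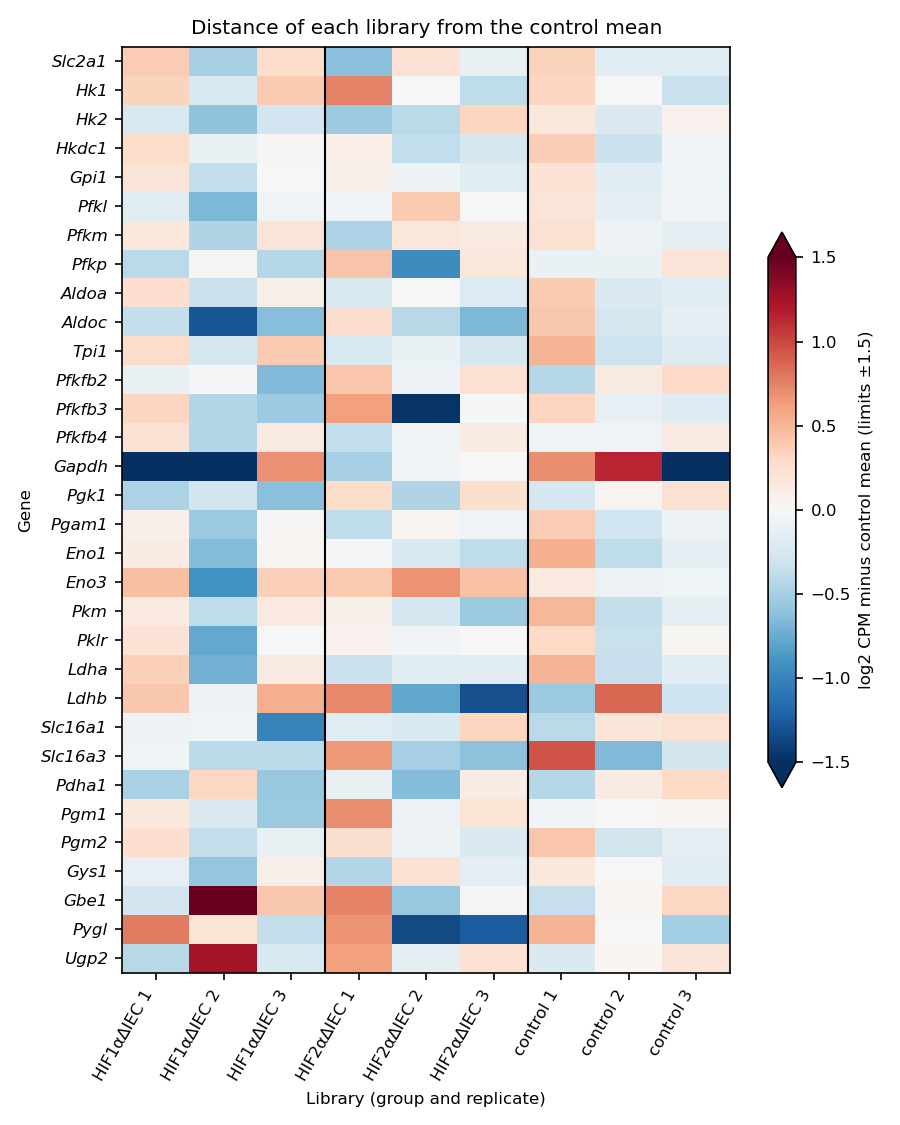
Distance of each library from the control mean (log2 CPM minus the mean of the 3 controls) for the 32 tested genes, with rows in pathway order and columns by group and replicate. Blue is below and red above the control mean, with the scale ending at 1.5 on either side. HIF1α∆IEC replicate 2 is blue for 27 of 32 genes, and control replicate 1 is below the mean for 10 of 32.

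Lying wholly outside the controls was rare. In HIF1α∆IEC 3 of 32 genes lay wholly below the controls (Aldoc, Pgk1 and Hk2) and 0 wholly above, where 3.72% of all tested genes lay below and 4.6% above. In HIF2α∆IEC 0 of 32 lay wholly below and 1, Eno3, wholly above, where 2.51% of all tested genes lay below and 3.03% above. Of the 3 lower genes, Pgk1 and Hk2 held ACGTG in their windows and Aldoc held GCGTG in both of its windows, while Ldha, with 5 matches to ACGTG before 1 of its starts, overlapped between the groups. ACGTG or GCGTG lay before at least 1 start of 26 of the 33 genes, and in 73.5% of their windows against 38.6% of all windows. The part of these matches in the values was not tested. No test of these counts was made.

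Set directly against each other, HIF2α∆IEC and HIF1α∆IEC differed in none of the 32 genes beyond the threshold. Below 0 were 15 of 32 log2 fold changes of HIF2α∆IEC over HIF1α∆IEC (9 of 32 without HIF1α∆IEC replicate 1), with 48.4% of all tested genes below 0. Pgk1 had the smallest p of the 32, at a log2 fold change of 0.51 ± 0.24 (unadjusted p = 0.0594, edgeR adjusted p = 0.757). HIF2α∆IEC replicates 1 and 3 lay above all HIF1α∆IEC libraries for Pgk1, and HIF2α∆IEC replicate 2 lay among them. Next came Pgm1, with 0.48 ± 0.25, and Pfkl, with 0.41 ± 0.23. Pfkl was the 1 gene of the 32 whose libraries did not overlap, higher in HIF2α∆IEC with the nearest pair at 72.7 and 71.96 CPM, where 4.37% of all tested genes were wholly higher and 6.08% wholly lower. Gbe1 followed with -0.78 ± 0.55 and Aldoc with 0.48 ± 0.35. The log2 fold change of Gbe1 was 0.073 without HIF1α∆IEC replicate 2, which alone had its high level. For the glucose transporter and lactate dehydrogenase the log2 fold changes were -0.23 ± 0.30 for Slc2a1 and -0.21 ± 0.31 for Ldha, within the spread, with 95% intervals of -0.89 to 0.43 and -0.88 to 0.47. Adjusted p (edgeR) for the other 6 of these genes ran from 0.781 to 0.961.

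Of the genes around the pathway, 0 passed the test in any comparison (edgeR, adjusted p under 0.05). Of 13 tested isoforms and transporters outside the 33, 9 had a log2 fold change below 0 in HIF1α∆IEC and 4 in HIF2α∆IEC. Beside this count and those of the lists below, 47.3% of all tested genes were below 0 in HIF1α∆IEC and 47.1% in HIF2α∆IEC. Gapdhs, the sperm isoform of Gapdh, was low, at 1.196, 0.317 and 0.892 CPM in HIF1α∆IEC and 1.01, 1.51 and 1.16 CPM in HIF2α∆IEC, against 1.56, 1.75 and 1.82 CPM in the controls, and both deletion groups lay wholly below the controls. Gapdhs's log2 fold changes were -1.07 ± 0.48 in HIF1α∆IEC and -0.48 ± 0.47 in HIF2α∆IEC, with an unadjusted p of 0.0466 in HIF1α∆IEC and an adjusted p (edgeR) of 0.999. Pfkfb1, the liver PFKFB, was at -0.58 ± 0.34 in HIF1α∆IEC and -0.11 ± 0.33 in HIF2α∆IEC. Slc16a7, which encodes MCT2, was at 1.16 ± 0.67 in HIF1α∆IEC and 0.072 ± 0.67 in HIF2α∆IEC. Slc2a3, which encodes GLUT3, was at 0.51 ± 0.64 in HIF1α∆IEC and 0.95 ± 0.64 in HIF2α∆IEC, on the log2 scale against control.

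Of 7 gluconeogenesis genes, 3 were below 0 in HIF1α∆IEC and 2 in HIF2α∆IEC. Pck1, cytosolic PEP carboxykinase and the entry to gluconeogenesis, had 85.7, 54.1 and 60.8 CPM in HIF1α∆IEC and 265, 45.9 and 40.9 CPM in HIF2α∆IEC, against 58.3, 23.5 and 41.8 CPM in the controls. HIF2α∆IEC replicate 1 was far above all other libraries, and the other 2 of its group lay inside the control range. Pck1's log2 fold changes were 0.70 ± 0.62 in HIF1α∆IEC and 1.51 ± 0.63 in HIF2α∆IEC, with an unadjusted p of 0.034 and an adjusted p (edgeR) of 1 in HIF2α∆IEC. G6pc, glucose-6-phosphatase, was at -0.50 ± 0.34 in HIF1α∆IEC and 0.25 ± 0.34 in HIF2α∆IEC, and at 0.75 ± 0.34 in HIF2α∆IEC against HIF1α∆IEC (unadjusted p = 0.0482, edgeR adjusted p = 0.752). Pcx, pyruvate carboxylase, was at 0.31 ± 0.29 in HIF1α∆IEC and 0.071 ± 0.29 in HIF2α∆IEC, and Pck2, the mitochondrial PEP carboxykinase, at 0.11 ± 0.35 in HIF1α∆IEC and 0.091 ± 0.35 in HIF2α∆IEC.

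Of 8 pentose phosphate genes, 3 were below 0 in HIF1α∆IEC and 6 in HIF2α∆IEC. Pgls, 6-phosphogluconolactonase, had 157, 272 and 207 CPM in HIF1α∆IEC and 80.1, 142 and 105 CPM in HIF2α∆IEC, against 158, 110.1 and 104 CPM in the controls. HIF1α∆IEC replicates 2 and 3 were the highest of the 9 libraries, and replicate 1 was level with control replicate 1. Pgls's log2 fold changes were 0.78 ± 0.28 in HIF1α∆IEC and -0.19 ± 0.28 in HIF2α∆IEC, with an unadjusted p of 0.0185 and an adjusted p (edgeR) of 0.999 in HIF1α∆IEC. All HIF2α∆IEC libraries lay below all HIF1α∆IEC libraries, with a log2 fold change of -0.96 ± 0.28 between the deletions (unadjusted p = 0.0056, edgeR adjusted p = 0.649). Rpe, an epimerase, was at -0.34 ± 0.39 in HIF1α∆IEC and -0.10 ± 0.39 in HIF2α∆IEC. Taldo1, transaldolase, was at 0.23 ± 0.27 in HIF1α∆IEC and -0.10 ± 0.27 in HIF2α∆IEC, and Pgd, 6-phosphogluconate dehydrogenase, at 0.022 ± 0.25 in HIF1α∆IEC and -0.089 ± 0.25 in HIF2α∆IEC.

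Of 13 genes of pyruvate oxidation, 7 were below 0 in HIF1α∆IEC and 6 in HIF2α∆IEC. Pdk1, the pyruvate dehydrogenase kinase known as a HIF1α target, had 23.8, 40.7 and 23.8 CPM in HIF1α∆IEC and 36.7, 30.2 and 47.8 CPM in HIF2α∆IEC, against 23.1, 47.9 and 50.7 CPM in the controls. The lowest of the 9 libraries was control replicate 1, with HIF1α∆IEC replicates 1 and 3 next to it, and the groups overlapped. Pdk1's log2 fold changes were -0.46 ± 0.34 in HIF1α∆IEC and -0.085 ± 0.34 in HIF2α∆IEC. Pdk4, the kinase known for its rise in fasting, had 2.36, 0.634 and 0.963 CPM in HIF1α∆IEC and 15.2, 3.39 and 2.496 CPM in HIF2α∆IEC, against 1.71, 1.63 and 3.22 CPM in the controls, with log2 fold changes of -0.72 ± 0.71 in HIF1α∆IEC and 1.68 ± 0.70 in HIF2α∆IEC and an unadjusted p of 0.0349 in HIF2α∆IEC (edgeR adjusted p = 1). HIF2α∆IEC replicate 1, the library with the high Pck1 level, also carried the highest Pdk4 level. Against HIF1α∆IEC, Pdk4 in HIF2α∆IEC was at 2.39 ± 0.72 (unadjusted p = 0.00655, edgeR adjusted p = 0.649), with no overlap between the 2 groups. Mpc2, of the mitochondrial pyruvate carrier, was at 0.34 ± 0.25 in HIF1α∆IEC and 0.0033 ± 0.25 in HIF2α∆IEC. Pdhb, the E1 beta subunit, was at -0.21 ± 0.20 in HIF1α∆IEC and 0.014 ± 0.20 in HIF2α∆IEC. Dlat, the E2 subunit, was at -0.089 ± 0.22 in HIF1α∆IEC and -0.27 ± 0.22 in HIF2α∆IEC, and Pdp2, a phosphatase of the complex, at -0.11 ± 0.28 in HIF1α∆IEC and -0.33 ± 0.28 in HIF2α∆IEC.

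Of 16 tested further glycogen genes, 13 were below 0 in HIF1α∆IEC and 8 in HIF2α∆IEC, where 47.3% and 47.1% of all tested genes were. How far these counts rest on single libraries or on sex was not tested. Epm2a, which encodes the glycogen phosphatase laforin, had 0.652, 0.686 and 0.642 CPM in HIF1α∆IEC and 1.7, 1.48 and 1.73 CPM in HIF2α∆IEC, against 0.781, 1.46 and 1.86 CPM in the controls. Its HIF1α∆IEC libraries lay wholly below the controls, with the nearest pair at 0.686 and 0.781 CPM. Epm2a's log2 fold changes were -1.05 ± 0.43 in HIF1α∆IEC and 0.25 ± 0.41 in HIF2α∆IEC, with an unadjusted p of 0.0308 and an adjusted p (edgeR) of 0.999 in HIF1α∆IEC. The HIF2α∆IEC libraries all lay above those of HIF1α∆IEC, at a log2 fold change of 1.31 ± 0.42 (unadjusted p = 0.00999, edgeR adjusted p = 0.649). Phkb, a phosphorylase kinase subunit, was at 0.96 ± 0.59 in HIF1α∆IEC and 0.057 ± 0.58 in HIF2α∆IEC. Pygm, the muscle phosphorylase, was at -0.73 ± 0.59 in HIF1α∆IEC and -0.25 ± 0.57 in HIF2α∆IEC. Phka2, another phosphorylase kinase subunit, was at -0.19 ± 0.27 in HIF1α∆IEC and -0.22 ± 0.27 in HIF2α∆IEC, and Ppp1r3e, a subunit that targets phosphatase to glycogen, at -0.15 ± 0.27 in HIF1α∆IEC and -0.18 ± 0.27 in HIF2α∆IEC.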

How the data were processed

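RNA sequencing of 9 libraries of small intestine epithelial cells, 3 per group, was read from 1 table of raw counts per gene that the authors deposited, with gene lengths. Per the submitters' processing notes, CASAVA, Bowtie 0.12.2 and mm10 were used; the sources used here do not give the counting program, its strand setting or its treatment of reads that fit several loci. Counts were not rescaled before the test. The 33 genes and all lists were chosen with earlier results of these data known.

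Genes were filtered with filterByExpr (15486 of 43629 kept), scaled by TMM and tested with the edgeR 4.0.16 quasi-likelihood test (R 4.3.3), two-sided, with all 9 libraries in 1 fit by group (6 residual degrees of freedom). P-values were adjusted by Benjamini-Hochberg over all tested genes, with a threshold of 0.05. The procedure was run on simulated data in which all genes had the same spread and no library stood apart. That run therefore does not show how the procedure performs on libraries as uneven as these. Levels are TMM-scaled counts per 1000000 (CPM), and levels between genes are compared per kilobase with the deposited gene lengths. Intervals are 95%. Near-identical loci were found with blastn 2.17.0 (at least 95% identity over 200 bases), and adding them to the genes was an alternative chosen after seeing the data. Other alternatives were DESeq2 1.42.0, limma-voom (limma 3.58.1), scaling by RLE or the upper quartile, other count filters, only the libraries compared, the replicate block (values in the closing section), a sex term, and libraries left out. Total counts of 20959964 to 40391453 per library make counting error small for all but the lowest genes, so the spread between libraries sets the precision.

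All 33 genes are named; between the deletions, the 5 of smallest p with Slc2a1 and Ldha; from each further list, up to 3 of smallest p in each comparison against control, of which 1 is not reported here. Promoter sequences are from RefSeq (GRCm38.p6), cut at the first exon in GENCODE M21.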

Additional observations from a re-analysis of the deposited data

How the results depend on the processing

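The count of 0 of the 33 genes past the threshold held under every alternative run, in all 3 comparisons. Values of single genes under each alternative were tabulated for the 32 tested genes in both comparisons against control and for the 7 named in HIF2α∆IEC against HIF1α∆IEC, and the smallest adjusted p among these was 0.424. The counts over all genes in HIF1α∆IEC against control, HIF2α∆IEC against control and HIF2α∆IEC against HIF1α∆IEC were 2, 5 and 15 with DESeq2 and 1, 5 and 10 with no count filter, 1 in HIF2α∆IEC against control without both libraries that stood apart, and 0 to 1 in each comparison when 1 library was left out. Same-numbered libraries correlated at -0.46 to 0.33 over their deviations from the group means, with 3 of 9 pairs over 0.1. Among those 3 were HIF1α∆IEC and control replicate 1 (0.33) and HIF2α∆IEC and control replicate 3 (0.22). These were also the closest libraries by chi-square, at 17.7 and 24.9. A pair with different numbers, HIF1α∆IEC replicate 3 and HIF2α∆IEC replicate 2, reached 0.49. The numbers thus gave no even pairing, and whether some same-numbered libraries share an origin was not tested. The replicate block called 1 and 2 genes in the comparisons against control, and Pklr was 0.018 in HIF2α∆IEC with it. The log2 fold changes lie near 0, so their signs turned easily: of 1417 alternative values tabulated 1296 kept their direction and 121 did not, and the cause was not tested.

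Values on the other side of 0 with a term for sex were in HIF1α∆IEC against control Gpi1 0.13, Aldoa 0.068, Pfkfb3 0.44, Eno1 0.024, Pkm 0.18, Pklr 0.050, Ldha 0.082, Slc16a3 0.086, Pgm1 0.19 and Pgm2 0.19, and in HIF2α∆IEC against control Hkdc1 0.039, Gpi1 0.12, Pfkp 0.15, Aldoc 0.15, Pfkfb3 0.48, Pklr 0.20, Ldhb 0.12, Slc16a1 0.022, Slc16a3 0.21, Pgm2 0.24 and Pygl 0.28; the counts below 0 were then 13 and 13 of 32. Without both libraries that stood apart they were in HIF1α∆IEC against control Gpi1 0.061, Pfkm 0.13, Aldoa 0.11, Pfkfb4 0.14, Pkm 0.065, Pklr 0.063, Ldha 0.17, Pgm2 0.022 and Ugp2 -0.37, and in HIF2α∆IEC against control Slc2a1 0.058, Hk1 -0.20, Hk2 0.021, Pfkm 0.16, Pfkfb4 0.050, Pgk1 -0.055, Slc16a1 0.069, Gys1 0.047 and Gbe1 -0.30, and in HIF2α∆IEC against HIF1α∆IEC Aldoc -0.0072. With no count filter they were in HIF2α∆IEC against control Pfkm 0.0092, Pfkp 0.025, Pklr 0.020 and Slc16a1 0.0067. With limma-voom Pklr was 0.0051, and with a filter of at least 1 CPM in 3 libraries Pfkp was 0.0095, both in HIF2α∆IEC against control.

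Leaving out 1 library at a time gave ranges that held both signs. In HIF1α∆IEC against control they were Slc2a1 -0.13 to 0.28, Hkdc1 -0.11 to 0.21, Eno3 -0.19 to 0.37, Pygl -0.14 to 0.49, Gpi1 -0.22 to 0.061, Pfkm -0.14 to 0.13, Aldoa -0.18 to 0.18, Pfkfb4 -0.17 to 0.14, Pkm -0.23 to 0.20, Pklr -0.40 to 0.063, Ldha -0.32 to 0.20, Pgm2 -0.30 to 0.12, Ugp2 -0.37 to 0.65, Tpi1 -0.036 to 0.37, Pgam1 -0.31 to 0.021, Eno1 -0.36 to 0.097, Ldhb -0.10 to 0.88 and Slc16a3 -0.73 to 0.15. In HIF2α∆IEC against control they were Slc2a1 -0.36 to 0.058, Hk1 -0.20 to 0.39, Hk2 -0.48 to 0.021, Pfkm -0.14 to 0.16, Pfkfb4 -0.21 to 0.050, Pgk1 -0.086 to 0.24, Slc16a1 -0.23 to 0.077, Gys1 -0.29 to 0.047, Gbe1 -0.30 to 0.39, Pfkl -0.032 to 0.21, Pfkp -0.26 to 0.30, Pfkfb3 -0.56 to 0.31, Pklr -0.17 to 0.13, Ldhb -1.48 to 0.26, Slc16a3 -0.71 to 0.40, Pgm2 -0.17 to 0.19, Hkdc1 -0.33 to 0.0030, Gpi1 -0.14 to 0.041, Aldoa -0.28 to 0.044, Tpi1 -0.39 to 0.046, Pfkfb2 -0.025 to 0.32, Pgam1 -0.30 to 0.047, Eno1 -0.44 to 0.044, Pkm -0.44 to 0.011 and Ldha -0.43 to 0.025. In HIF2α∆IEC against HIF1α∆IEC, of the 7 genes tabulated, they were Ldha -0.43 to 0.058, Gbe1 -1.16 to 0.073 and Slc2a1 -0.45 to 0.0027. Counts below 0 ran from 15 to 27 of 32, from 13 to 24 and from 9 to 18 in the same order of comparisons. With 3 libraries a group and a median SE of 0.29 on the log2 scale, differences of that size are not detectable at this depth and spread. Much larger ones also went uncalled. Aldoc at -0.74 in HIF1α∆IEC against control had an adjusted p (edgeR) of 0.999. Pdk4 at 2.39 in HIF2α∆IEC against HIF1α∆IEC had an adjusted p (edgeR) of 0.649. Ldhb and Eno2 are further limited by few counts.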

Other observations

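HIF1α∆IEC replicate 2 was the highest of the 9 libraries for Gbe1, Ugp2 and Pdha1 among the 33 genes, while it was the lowest for 14 of them. Phkb, the beta subunit of phosphorylase kinase, had 5.18, 30.9 and 7.10 CPM in HIF1α∆IEC and 11.3, 5.39 and 6.45 CPM in HIF2α∆IEC, against 6.64, 8.53 and 7.02 CPM in the controls. Hif1a, with 64.3 CPM, was also highest there. These genes were picked after their values were seen, and no test of the pattern was made.

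HIF2α∆IEC replicate 1 had the highest level of Pck1, Pdk4 and Slc2a3 of the 9 libraries, at 265 CPM, 15.2 CPM and 12.03 CPM. The same library had the highest summed level of T cell and intraepithelial lymphocyte markers, 3179 CPM, and of erythroid markers, 118.5 CPM. It was also the highest for enterocyte markers, at 21720 CPM, stromal markers, at 61.6 CPM, and goblet cell markers, at 12230 CPM. For Paneth cell, macrophage and dividing crypt cell markers other libraries were the highest. The part of any of these cells in the 3 values was not tested.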
